A study of Mus musculus with 6 samples.

Results

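Interferon beta and the chains of the interferon receptors were followed in murine bone marrow–derived macrophages (BMDMs), through the genes *Ifnb1*, *Ifnar1*, *Ifnar2*, *Ifngr1*, and *Ifngr2*. They were chosen by name, as every array probe whose gene name in the scanner files was one of these 5, of 34786 gene names tested. The 5 genes were measured by 7 of the 55681 probes on the array, 3 of them for *Ifnar1* and 1 for each other gene, and every probe is reported. The cells were grown from bone marrow of female mice, C57BL/6 and aged 6 to 8 weeks by the sample labels, and C57BL6/J and older by the methods of the study, for 7 days with conditioned medium of L929, a fibroblast line that secretes the macrophage growth factor M-CSF. Untreated cells were compared with cells given lipopolysaccharide (LPS), a bacterial cell wall component sensed by Toll-like receptor 4 (TLR4), for 4 h, and with cells given HBX41,108 before LPS (LPS+inhibitor). HBX41,108 is a small molecule inhibitor of the deubiquitinase USP7 and was used at 10 μM, 30 min ahead of LPS. The series description gives 100 ng/ml for LPS, while the labels of the samples give the same figure per microliter. The sources used here do not say whether LPS cells received the solvent of the inhibitor, so the comparison of LPS+inhibitor with LPS takes in any solvent effect. Inhibitor without LPS is not among the samples.

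Interferon beta is a secreted type I interferon. In macrophages its transcription is switched on when TLR4 signals through the adaptors TRAM and TRIF to the kinase TBK1, which activates the transcription factor IRF3, together with NF-κB and AP-1. The protein binds a receptor made of the chains IFNAR1 and IFNAR2, on the same cell or its neighbors, and the kinases TYK2 and JAK1 then start a signal that turns on antiviral genes, with STAT2 and IRF9 among its transcription factors. Interferon gamma, the type II interferon made mainly by T and NK cells, binds another receptor, made of the chains IFNGR1 and IFNGR2, which signals through JAK1 and JAK2.

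Each group was measured on 2 single-color arrays, which the series describes as samples of independent experiments, and so few arrays limit how precise any value is. All 6 arrays lay on 1 slide. Rows 1, 2, and 4 of the slide held the untreated, LPS, and LPS+inhibitor cells, so slide row and treatment cannot be told apart. Between 25002 and 27467 of 59305 spots per array were well above background by the criterion of the scanner software, and 0 were saturated. Levels below are normalized log2 signals, on which 1 unit is a doubling, and a probe was called where its adjusted p from limma was under 0.05. With 2 arrays a side, the lowest two-sided p of an exact permutation test is 0.333.

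*Ifnb1*, the ligand, was low in untreated cells and high in both LPS groups. Its probe read 4.80 and 4.34 on the untreated arrays, 12.01 and 12.85 with LPS, and 12.87 and 12.52 with LPS+inhibitor. It was well above background on 1 of the 2 untreated arrays and on all 4 others. The untreated arrays lay far below the rest, while the arrays of LPS and LPS+inhibitor overlapped. With LPS, *Ifnb1* rose by a log2 value of 7.86 (standard error 0.36, limma adjusted p = 0.00317), or 232-fold with a 95% interval from 116 to 463. The difference was 5.81 with normexp correction and 6.94 with the deposited values, so its size depends on the processing. Differences and folds of *Ifnb1* against untreated cells also rest in part on the untreated array where the probe was not well above background. Before normalization, the processed signal of the untreated arrays was 29.9 and 27.6, that of the LPS arrays 3788 and 8515, and that of the LPS+inhibitor arrays 5702 and 5693. In bulk samples such as these, a change in the number of expressing cells and a change in RNA per cell cannot be told apart.

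The inhibitor left no difference in *Ifnb1* that exceeded the spread of the replicates. LPS+inhibitor minus LPS was 0.26 (standard error 0.36, adjusted p = 0.766), with a 95% interval from −0.73 to 1.26, or from 0.601 to 2.39 as a ratio of LPS+inhibitor to LPS. The difference was 0.86 between the arrays numbered 1 and −0.33 between those numbered 2. The LPS arrays were the furthest apart (12.43 ± 0.59, SD, n = 2), against 12.69 ± 0.25 with LPS+inhibitor and 4.57 ± 0.32 in untreated cells. Without LPS replicate 1 the difference was −0.15, and without LPS replicate 2 it was 0.68. Against untreated cells, *Ifnb1* in LPS+inhibitor was 8.12 higher (standard error 0.36, adjusted p = 0.00509), and 6.02 higher with normexp correction and 7.17 with the deposited values.

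The *Ifnb1* probe lies on mouse build mm9 at chr4:88168023-88168082, on the minus strand, 616 bases into transcript NM_010510. Its first 30 bases are shown to identify what was measured.
Ifnb1 probe: tttaagcatcagaggcggactctgggactg
The *Ifnb1* promoter is shown because LPS moved this gene more than any other member. The stretch printed covers bases −169 to −67 from the annotated start, at chr4:88522861-88522963 on the minus strand of GRCm38.p6, from RefSeq. Capitals mark matches to the interferon regulatory factor element AANNGAAA, the kappaB motif GGANNTTCC, and the TATA box TATAAA.
Ifnb1 promoter: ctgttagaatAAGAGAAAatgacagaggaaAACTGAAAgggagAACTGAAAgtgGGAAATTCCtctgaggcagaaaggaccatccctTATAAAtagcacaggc
Within this stretch, 3 matches to the IRF element stood upstream of the single kappaB match and a TATA box. The window searched, from 250 bases before to 50 after the start, held a further TATA match at −210 and 0 matches to AP-1 (TGACTCA) or to the gamma-activated site TTCNNNGAA. Of 32851 promoters of the same length in the table, 23.9% held the IRF element, 4.26% the kappaB motif, 8.32% the TATA box on the gene strand, 5.20% AP-1, and 8.30% the gamma-activated site, with both strands searched for all but the TATA box. All 5 genes had a promoter in the table. In the same window, *Ifnar1* and *Ifnar2* held 1 gamma-activated site each, *Ifngr2* held 1 kappaB match, *Ifngr1* held 0 matches to any of the motifs, and 0 of the 4 receptor promoters held the IRF element, AP-1, or the TATA box. A match is a string of letters and not a shown binding site.

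**Figure D1:**
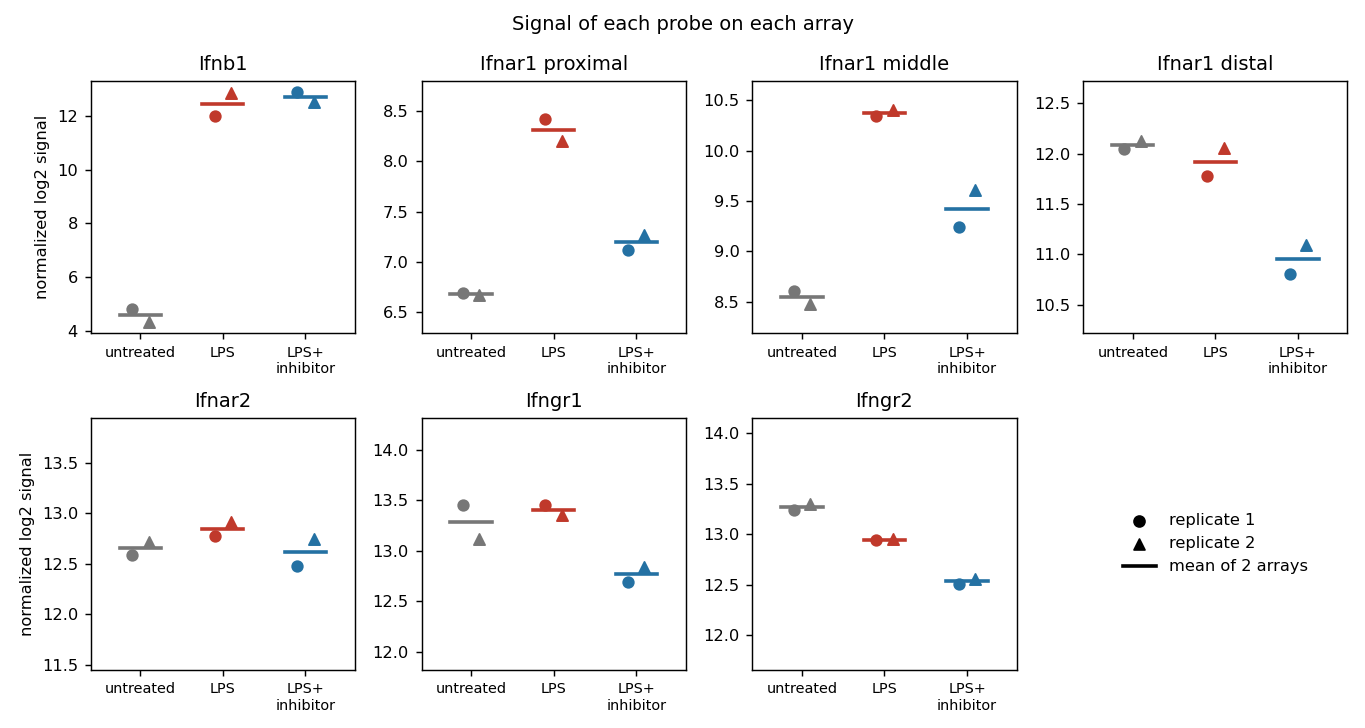
Normalized log2 signal (vertical axis, its own range in each panel) of the 7 probes on the 6 arrays, with circles for replicate 1, triangles for replicate 2, and a bar for the mean of the 2 arrays of a group. *Ifnb1* is near 4.57 in untreated cells and near 12.43 and 12.69 in the LPS groups, whereas the group means of the receptor probes stay within 1.83 of the untreated mean.

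*Ifnar1*, the chain of the type I receptor that binds TYK2, was measured by 3 probes along NM_010508, all on the plus strand of chromosome 16 of build mm9. They are called proximal, middle, and distal here, by where they start in the transcript. The proximal probe starts at base 1536 and spans chr16:91503764-91505350, a stretch of 1587 bases for a short probe, so it crosses a splice junction. The middle probe starts at base 2880, at chr16:91506635-91506693, and the distal probe at base 6918, at chr16:91510673-91510732. The first 30 bases of each are shown because the probes did not move alike.
Ifnar1 proximal probe: attgatgagtttttctctgagccgccttca
Ifnar1 middle probe: cctcactactaccttgtatctcagtctcct
Ifnar1 distal probe: gctctacctcaagagactaagagggtgaac
The proximal probe read 6.69 and 6.67 untreated, 8.42 and 8.20 after LPS, and 7.12 and 7.27 after LPS+inhibitor. The middle probe read 8.61 and 8.48, then 10.34 and 10.40, then 9.24 and 9.61 in the same order of groups. On both probes LPS was highest, untreated cells were lowest, LPS+inhibitor lay between them, and no 2 groups overlapped. The distal probe read 12.05 and 12.13 untreated, 11.78 and 12.06 after LPS, and 10.81 and 11.09 after LPS+inhibitor. On this probe untreated and LPS cells overlapped and LPS+inhibitor was lowest.

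With LPS, the proximal *Ifnar1* probe rose by a log2 value of 1.63 (standard error 0.11, adjusted p = 0.00463), or 3.09-fold, and the middle probe rose by 1.83 (standard error 0.15, adjusted p = 0.00622), or 3.55-fold. The distal probe differed by −0.17 (standard error 0.15, adjusted p = 0.564), with a 95% interval from −0.58 to 0.24, and by 0.17 with 75th percentile scaling. In LPS+inhibitor compared with LPS, all 3 probes were lower. The proximal probe fell by 1.12 (adjusted p = 0.0193), or 2.17-fold, the middle probe fell by 0.95 (adjusted p = 0.0414), or 1.93-fold, and the distal probe fell by 0.97 (adjusted p = 0.0397), or 1.96-fold. Their 95% intervals, from −1.42 to −0.82, from −1.36 to −0.54, and from −1.38 to −0.56, overlapped. With the replicate number as a block in the fit, the middle probe did not pass (adjusted p = 0.07). The proximal and distal probes did (adjusted p = 0.0459 and 0.0404). Compared with untreated cells, LPS+inhibitor was 0.51 higher on the proximal probe (adjusted p = 0.0609), which did not pass, and 0.88 higher on the middle probe (adjusted p = 0.0362). The distal probe fell by 1.14 in that comparison (adjusted p = 0.0206). With the block the middle probe did not pass there (adjusted p = 0.0617), and the distal probe did (adjusted p = 0.0218).

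The unequal change along *Ifnar1* was also read within each array, as the log2 ratio of the distal to another probe. This ratio also contains how brightly each probe binds, so only its change between groups is read. The distal to middle ratio was 3.44 and 3.64 untreated, 1.44 and 1.66 after LPS, and 1.58 and 1.48 after LPS+inhibitor. It changed by −2.0 from untreated cells to LPS, with an SD of 0.15 and 0.14 in LPS and untreated cells, and LPS+inhibitor minus LPS was −0.02. The distal to proximal ratio was 5.36 and 5.45, then 3.36 and 3.85, then 3.70 and 3.82. It differed by −1.80 with LPS, and by 0.15 between LPS+inhibitor and LPS. The middle to proximal ratio differed by 0.20 with LPS. The ratios are differences within an array, so a shift common to all probes of an array leaves them as they are. Quantile normalization can move bright and dim probes by different amounts, so their size depends on the processing. With LPS the proximal, middle, and distal probes differed by 1.66, 1.89, and 0.17 with 75th percentile scaling. These were 1.23, 1.69, and −0.21 with normexp correction, and 1.52, 1.86, and −0.24 with the deposited values. The ratios show that the probes changed unequally with LPS, and not that any of them was unaffected.

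**Figure D2:**
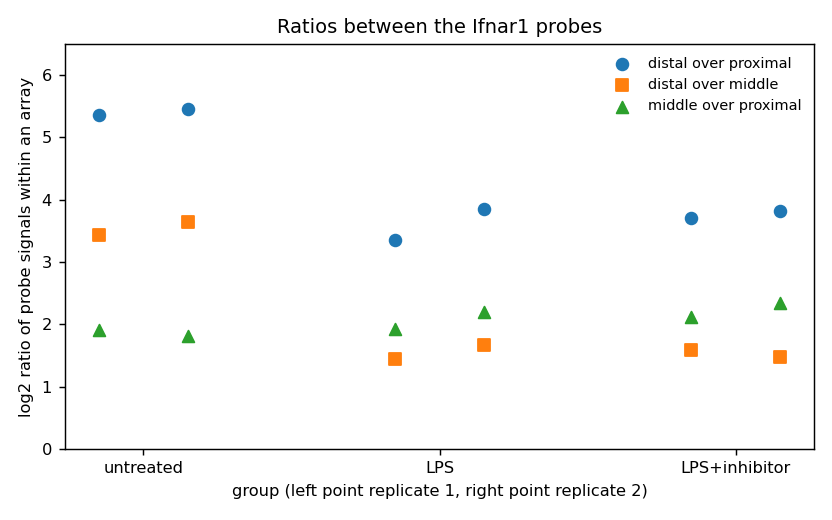
Log2 ratio of the signals of pairs of *Ifnar1* probes within each array (vertical axis) by group, with 1 point per array. The 2 ratios with the distal probe are lower on all 4 arrays of the LPS groups than in untreated cells, and the distal to middle ratio changes by −2.0 from untreated cells to LPS.

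*Ifnar2*, the partner chain that binds JAK1, was not called in any of the 3 comparisons. Its probe, 924 bases into NM_010509 at chr16:91394044-91394103 (mm9, plus strand), read 12.59 and 12.72 untreated, 12.78 and 12.92 after LPS, and 12.48 and 12.75 after LPS+inhibitor. The LPS arrays were the highest without overlap, and untreated and LPS+inhibitor cells overlapped. LPS minus untreated was 0.19 (standard error 0.13, adjusted p = 0.476), LPS+inhibitor minus LPS was −0.23 (standard error 0.13, adjusted p = 0.435), and LPS+inhibitor minus untreated was −0.04 (adjusted p = 0.959). The intervals of these differences all hold 0.

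*Ifngr1*, the chain that binds interferon gamma most directly, was measured 1990 bases into NM_010511, at chr10:19329923-19329982 (mm9, plus strand). It read 13.45 and 13.12 untreated, 13.45 and 13.36 after LPS, and 12.69 and 12.84 after LPS+inhibitor. Untreated and LPS cells overlapped, and both LPS+inhibitor arrays lay below them. LPS minus untreated was 0.12 (standard error 0.14, adjusted p = 0.698). LPS+inhibitor minus untreated was −0.52 (standard error 0.14, adjusted p = 0.111) and did not pass. That difference was −0.23 with 75th percentile scaling (adjusted p = 0.33), and −0.58 with normexp correction, where it passed (adjusted p = 0.0156). LPS+inhibitor minus LPS was −0.64 (standard error 0.14, adjusted p = 0.0829), with a 95% interval from −1.04 to −0.25, which did not pass over all probes although both arrays were lower. It passed under normexp correction (adjusted p = 0.00921) and when dim probes were left out (adjusted p = 0.0381), in a range from 0.00921 to 0.249 over the alternatives.

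*Ifngr2*, the signaling chain that binds JAK2, went down in steps from untreated cells to LPS to LPS+inhibitor. Its probe, 1799 bases into NM_008338 at chr16:91563982-91564041 (mm9, plus strand), read 13.24 and 13.30 untreated, 12.94 and 12.95 after LPS, and 12.51 and 12.56 after LPS+inhibitor. Its standard error was the smallest of the 7 probes, and no 2 groups overlapped. LPS minus untreated was −0.32 (standard error 0.06, adjusted p = 0.0345), and the sign turned to 0.16 with 75th percentile scaling (adjusted p = 0.270), in a range of adjusted p from 0.0222 to 0.270 over the alternatives. *Ifngr2* fell by 0.41 in LPS+inhibitor compared with LPS (standard error 0.06, adjusted p = 0.0360), or 1.33-fold, and by 0.73 compared with untreated cells (standard error 0.06, adjusted p = 0.00919), or 1.66-fold. Under other processing the adjusted p for LPS+inhibitor minus LPS ranged from 0.00989 to 0.160. With the replicate number as a block, *Ifngr2* did not pass with LPS (adjusted p = 0.0518) or in LPS+inhibitor minus LPS (adjusted p = 0.0592). Against untreated cells LPS+inhibitor still passed with the block (adjusted p = 0.0223).

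Of the 7 probes, 3 were called higher and 1 lower with LPS, against 7.09% and 10.7% of all 55680 probes tested. The 3 were *Ifnb1* and the proximal and middle *Ifnar1* probes, and the 1 was *Ifngr2*. In LPS+inhibitor minus LPS, 0 were called higher and 4 lower, namely the 3 *Ifnar1* probes and *Ifngr2*, against 4.66% and 3.79% of all probes. At an unadjusted p under 0.05 limma gave 6955 probes higher and 5731 lower in that comparison. In LPS+inhibitor minus untreated, *Ifnb1* and the middle *Ifnar1* probe were called higher and the distal *Ifnar1* probe and *Ifngr2* lower, which makes 2 and 2, against 5.65% and 7.34% of all probes. The 3 *Ifnar1* probes measure 1 gene and are not independent, and LPS+inhibitor minus LPS and LPS minus untreated share the LPS arrays.

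The calls in LPS+inhibitor minus LPS rest on the spread pooled over all 3 groups. In a fit of only these 2 groups limma called 0 probes in either direction, with a smallest adjusted p of 0.0561, while 6051 probes were higher and 5206 lower at an unadjusted p under 0.05. Without untreated replicate 1 or 2 the count of called probes was also 0, with 6051 higher and 5205 or 5206 lower unadjusted. The adjusted p of the proximal *Ifnar1* probe was 0.0713 in the fit of 2 groups, and it ranged from 0.00217 to 0.0713 over the 14 alternatives, against 0.00701 to 0.143 for the middle and 0.00514 to 0.112 for the distal probe. The proximal probe was not called without untreated replicate 1 or 2, LPS replicate 1, or LPS+inhibitor replicate 1. Of the 6 fits that left out an array, the middle probe was called in the 1 without LPS+inhibitor replicate 2, and the distal probe and *Ifngr2* were called in 0. Against untreated cells, the calls of distal *Ifnar1* and *Ifngr2* were lost without untreated replicate 1 or 2, that of the distal probe also without LPS+inhibitor replicate 1, and that of the middle probe in all but the fit without LPS+inhibitor replicate 1. The adjusted p reached 0.108, 0.0596, and 0.159 in these 3 cases. With LPS, the calls for *Ifnb1* and the proximal and middle *Ifnar1* probes were held in all 14 alternatives, with a highest adjusted p of 0.0323, 0.0392, and 0.0469.

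**Figure D3:**
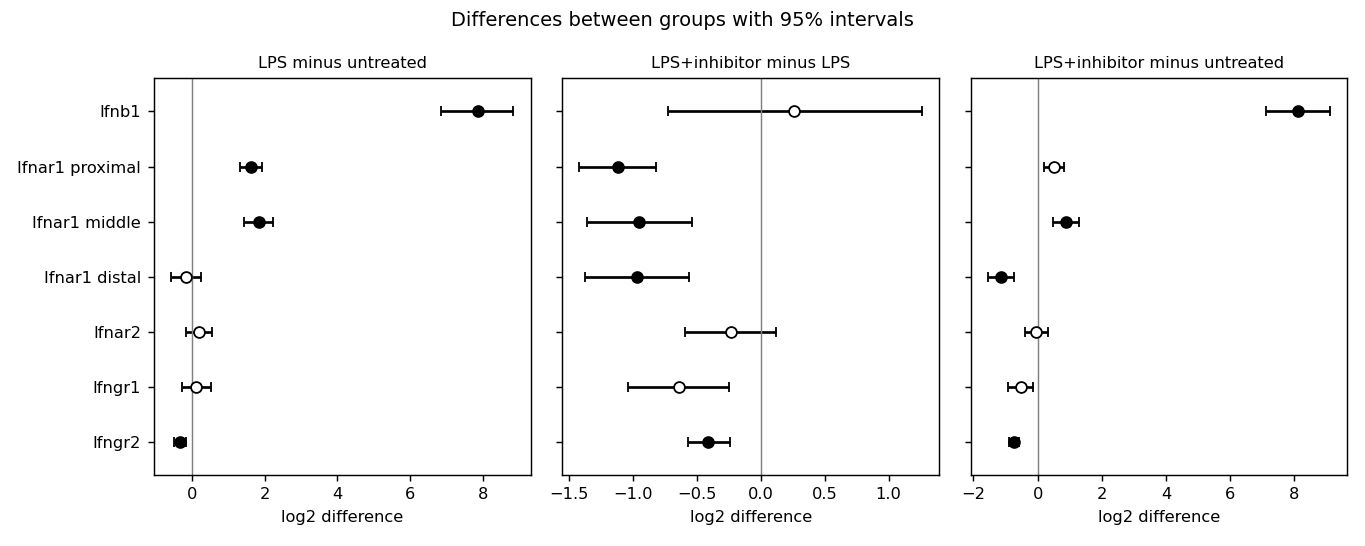
Log2 difference of each probe (horizontal axis, its own range in each panel) with its 95% interval from limma, for the 3 comparisons. Filled points passed an adjusted p of 0.05: 4 in each comparison, with *Ifnb1* at 7.86 and 8.12 against untreated cells and at 0.26 between the LPS groups. With 75th percentile scaling the distal *Ifnar1* probe and *Ifngr2* are at 0.17 and 0.16 in LPS minus untreated, and *Ifnar2* is at 0.20 in LPS+inhibitor minus untreated.

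The scale of the arrays matters for small differences against untreated cells. When arrays were scaled to their 75th percentile instead, the median of all probes moved by 0.51 in LPS minus untreated and by 0.55 in LPS+inhibitor minus untreated, and by 0 between the LPS groups. It then called 21768 probes higher and 5669 lower with LPS, where quantile normalization called 3948 higher and 5947 lower. For LPS+inhibitor minus untreated these counts were 21937 and 4605, where quantile normalization gave 3147 and 4086. Over probes well above background on all 6 arrays the median of LPS minus untreated was −0.15 with quantile normalization and 0.09 with the scaling. *Ifnar2* and *Ifngr1* were 0.63 and 0.62 higher with LPS under that scaling, with adjusted p values of 0.0429 and 0.0386. These 2 probes were well above background on all 6 arrays, as were the probes with the median of 0.09. Such probes did not all shift alike with the scaling. *Ifnar2* moved from 0.19 and *Ifngr1* from 0.12, while *Ifngr2* moved from −0.32 to 0.16 and distal *Ifnar1* from −0.17 to 0.17. Proximal and middle *Ifnar1* moved from 1.63 to 1.66 and from 1.83 to 1.89. The median of 0.09 therefore does not give the shift of a single probe.

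The other genes of the pathway were taken from 7 lists, with the brightest probe of a gene. Each list is set against all 34786 gene names, of which 7.98% were called higher and 12.8% lower with LPS, 5.52% higher and 4.27% lower in LPS+inhibitor minus LPS, and 6.16% higher and 8.71% lower in LPS+inhibitor minus untreated. The median difference over all gene names was 0 in each comparison. Without untreated replicate 1 or 2, and in the fit of 2 groups, 0 genes of any list were called in LPS+inhibitor minus LPS.

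Of 20 other interferon ligands, 15 were on the array, and 7 of these were well above background on both arrays of LPS or of untreated cells. With LPS 5 were called higher and 0 lower, with a list median of 0.79, or 0.98 over the 7. Without LPS replicate 2 these were 2 called and a list median of 0.43, and with normexp correction the list median was 0.22. The 5 were the alpha interferon genes *Ifna1*, *Ifna5*, *Ifna7*, *Ifna14*, and *Ifnab*, of which *Ifna7* was not well above background in any group. *Ifna5* rose by 1.58 (adjusted p = 0.00345), *Ifna1* by 1.33 (adjusted p = 0.0360), and *Ifnab* by 0.98 (adjusted p = 0.00504). In LPS+inhibitor compared with LPS, 3 were called lower and 0 higher, with a list median of −0.54. With 75th percentile scaling 1 was lower at a list median of −0.34, with normexp correction 2 at −0.20, and with the deposited values 0. *Ifna5* fell by 1.20 (adjusted p = 0.0130), *Ifna14* fell by 0.76 (adjusted p = 0.0357), and *Ifnab* fell by 0.42 (adjusted p = 0.0457). *Ifng*, the ligand of the IFNGR chains, did not stand well above background on a single array, at 2.12 and 2.13 untreated, 2.56 and 2.22 after LPS, and 2.52 and 2.31 after LPS+inhibitor. Sequences of the alpha interferon genes are much alike, so the values of single genes are uncertain. Of the interferon lambda receptor chains, *Ifnlr1* was not well above background in any group. *Il10rb*, which also serves the interleukin-10 receptor, differed by −0.58 with LPS (adjusted p = 0.0310) and by −0.26 between the LPS groups (adjusted p = 0.241). The difference with LPS did not pass with 75th percentile scaling, the deposited values, or any array left out. Nor did it pass in fits of 2 groups or with the replicate number as a block.

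The route from TLR4 to *Ifnb1* was represented by 17 genes, all on the array and well above background on both arrays of untreated or LPS cells. With LPS 10 were called higher and 2 lower, with a median of 0.70. *Irf1*, an interferon regulatory factor, rose by 3.90 (adjusted p = 0.00446), *Nfkb1*, the NF-κB subunit p105/p50, by 3.16 (adjusted p = 0.00253), and *Ikbke*, a kinase akin to TBK1, by 2.61 (adjusted p = 0.00616). The 2 lower genes were *Tlr4*, by −0.80 (adjusted p = 0.0305), and *Traf3*, an adaptor of this route, by −0.48 (adjusted p = 0.0456), and 0 of the 17 were lower with 75th percentile scaling. Without untreated replicate 1 or 2 the counts were 5 and 0. In LPS+inhibitor minus LPS 6 were called lower and 1 higher, with a median of −0.51, and 1 was called lower without LPS replicate 1 or 2. *Ticam2*, which encodes TRAM, was not well above background in LPS+inhibitor, and was at least 7.87-fold lower than with LPS (adjusted p = 0.0183). Such bounds take the lowest well-measured signal of an array in place of a dimmer value. The adjusted p beside a bound, here and below, is that of the limma difference, which kept the dimmer values. The bounds themselves were not tested. *Irf8*, a myeloid interferon regulatory factor, fell by 3.13 (adjusted p = 0.0144) and *Ikbke* fell by 1.64 (adjusted p = 0.0289). *Traf3* was the 1 higher, by 1.49 (adjusted p = 0.0126). *Tbk1* read 12.13 and 12.10 with LPS and 11.82 and 11.92 with LPS+inhibitor, a difference of −0.24 (adjusted p = 0.124), and *Irf3* differed by −0.30 (adjusted p = 0.350). Against untreated cells 7 of the 17 were called higher in LPS+inhibitor and 3 lower, but 2 and 0 without untreated replicate 1 or 2.

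Downstream of the receptors, 3 of 5 kinases and transcription factors were called higher with LPS and 0 lower, with a median of 0.98, and 1 was called without LPS replicate 1. *Jak2*, the kinase of IFNGR2, rose by 3.94 (adjusted p = 0.00493), *Stat2* by 1.04 (adjusted p = 0.0151), and *Tyk2*, the kinase of IFNAR1, by 0.98 (adjusted p = 0.00964). In LPS+inhibitor compared with LPS 2 were lower and 0 higher, with a median of −0.56. *Jak2* fell by 2.24 (adjusted p = 0.0268) and *Tyk2* fell by 1.67 (adjusted p = 0.0121). *Jak1*, which serves both receptors, differed by −0.25 between the LPS groups (adjusted p = 0.255).

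Of 7 inhibitors of receptor signaling, 4 were called higher with LPS and 0 lower, with a median of 1.64. These counts were 4 and 2 with the replicate number as a block, and 5 and 1 with normexp correction. *Socs3* rose by 7.91 (adjusted p = 0.00261), *Socs1* by 7.45 (adjusted p = 0.00338), and *Usp18*, a protease that binds IFNAR2, by 3.58 (adjusted p = 0.00438). In LPS+inhibitor compared with LPS 4 were lower and 0 higher, with a median of −1.48, and 0 were called without LPS replicate 1 or 2. *Usp18* fell by 1.75 (adjusted p = 0.0298), *Ptpn6*, the phosphatase SHP-1, fell by 1.48 (adjusted p = 0.0181), *Ptpn2* fell by 0.61 (adjusted p = 0.0436), and *Pias1* fell by 0.50 (adjusted p = 0.0318). *Socs1* and *Socs3* differed by −1.72 and −1.56 and did not pass (adjusted p = 0.0785 and 0.0515). The count called lower in this comparison was 2 with the block, and 6 with normexp correction or with dim probes left out. The counts over all probes rose as well, from 2109 of 55680 to 3239 of 55680 and to 3287 of 25084.

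All 13 genes induced by type I interferon were called higher with LPS, with a median of 5.43. *Cxcl10*, a chemokine, rose by 8.91 (adjusted p = 0.00280), *Cmpk2* by 6.63 (adjusted p = 0.00343), and *Rsad2*, the antiviral enzyme viperin, by 6.38 (adjusted p = 0.00349). In LPS+inhibitor minus LPS all 13 had a lower mean, with a median of −0.73, and 1 passed the threshold, *Oas1a*, which fell by 0.71 (adjusted p = 0.0442). That count depends on the processing: 6 of the 13 passed with normexp correction, 5 with dim probes left out, and 0 in each of the 6 fits that left out an array. Over all probes, the main fit called 2109 of 55680 lower in this comparison. Normexp correction called 3239 of 55680 lower, and 3287 of 25084 were lower with dim probes left out. *Cxcl10* differed by −0.26 (adjusted p = 0.746). Against untreated cells 10 of the 13 were called higher in LPS+inhibitor, with a median of 4.74.

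Of 8 genes induced by interferon gamma, 6 were called higher with LPS and 0 lower, with a median of 4.63. *Cxcl9*, a chemokine not well above background in untreated cells, rose at least 877-fold (adjusted p = 0.00659), *Nos2*, the inducible nitric oxide synthase, rose by 7.94 (adjusted p = 0.00412), and the GTPase *Gbp2* by 6.36 (adjusted p = 0.00425). In LPS+inhibitor compared with LPS 3 were lower and 0 higher, with a median of −1.79, and 0 were called without LPS replicate 1 or 2. *Nos2* fell by 4.79 (adjusted p = 0.0200), *Iigp1* fell by 3.09 (adjusted p = 0.0328), and *Gbp2* fell by 2.36 (adjusted p = 0.0471). The count called lower was 6 of 8 with normexp correction and 6 of 7 with dim probes left out. It was 5 with the deposited values and 1 with the replicate number as a block. Over all probes, 2109 of 55680 were lower in the main fit. That was 3239 of 55680 with normexp correction and 3287 of 25084 with dim probes left out. Whether this list and the type I list differ in their change was not tested. Against untreated cells 6 of the 8 were called higher in LPS+inhibitor, but 1 in the fit of 2 groups and 0 without untreated replicate 2.

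**Figure D4:**
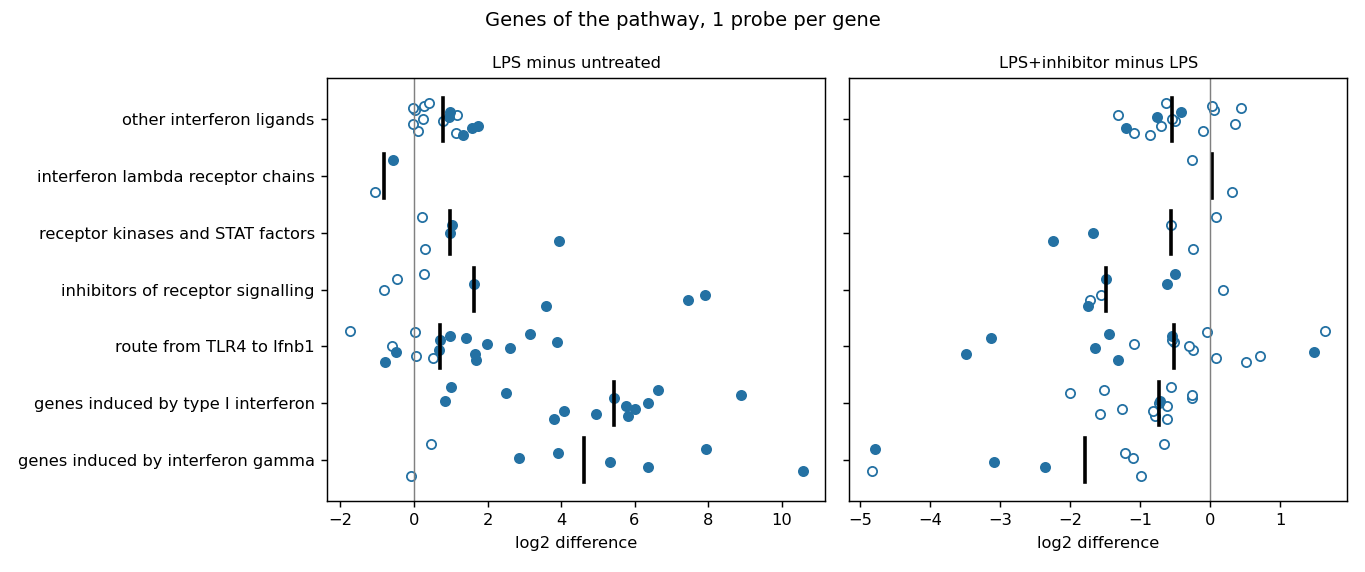
Log2 difference (horizontal axis) of each gene of the 7 lists in LPS minus untreated and LPS+inhibitor minus LPS, with filled points for an adjusted p under 0.05, open points for the others, and a bar for the list median. The medians of the genes induced by type I interferon are 5.43 and −0.73, and those of the genes induced by interferon gamma 4.63 and −1.79; both medians keep their sign with 75th percentile scaling, where they are 5.83 and −0.93, and 4.95 and −1.96.

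Probes of 1 gene could differ here as for *Ifnar1*. This was checked for the genes of the pathway lists and not for the cell type markers below. Some of those markers also had several probes, among them *Itgam*, *Siglech*, *Ccr9*, *Tcf4*, *Pax5*, and *Zbtb46*, and only the brightest was read. Of the 18 list genes with several probes, 4 had another probe with a different call with LPS, and 7 in LPS+inhibitor minus LPS, among them *Tlr4* in the former, *Iigp1* and *Ptpn2* in the latter, and *Oas1a* and *Ifnab* in both, while 0 had probes called in opposite directions.

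Genes whose pattern over the 6 arrays was most like that of a member were found by the root mean square difference of mean-centered log2 values, among 12089 genes matched in RefSeq and well above background on both LPS arrays. For *Ifnb1* they were *Tnfsf4*, *Acod1*, *Cxcl10*, *Tnf*, and *Olr1*, at 0.40, 0.55, 0.57, 0.62, and 0.64. *Tnfsf4* encodes OX40 ligand, *Acod1* the enzyme that makes itaconate, *Tnf* the cytokine TNF, and *Olr1* a scavenger receptor. *Tnfsf4* rose at least 142-fold with LPS from an untreated level not well above background. It read 10.92 and 11.33 with LPS and 11.49 and 11.97 with LPS+inhibitor, a difference of 0.60 (adjusted p = 0.240). *Tnf* fell by 0.78 in that comparison (adjusted p = 0.0382). *Olr1* was also not well above background in untreated cells, so its distance and that of *Tnfsf4* rest in part on unmeasured levels. For the distal *Ifnar1* probe, its brightest, they were *Lrba*, *Hltf*, and *Vps13b*, at 0.06, 0.06, and 0.07. For *Ifnar2* they were *Galm*, *Bmi1*, and *Dnm1l*, at 0.01, 0.03, and 0.03, for *Ifngr1* *Itm2a*, *Elmod2*, and *Mymk*, each at 0.08, and for *Ifngr2* *Klhdc10*, *Zfp992*, and *Rabep2*, at 0.03, 0.04, and 0.05. With 6 arrays many genes share a nearly flat pattern, so these names describe likeness and no relation.

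The cells carried the markers of macrophages. All 7 macrophage markers were well above background on every array, with *Csf1r*, the receptor of M-CSF, the most abundant over the 6 arrays together, and their summed signal was 677000 and 664000 on the untreated arrays, 550000 and 567000 on the LPS arrays, and 563000 and 509000 on the LPS+inhibitor arrays. In each comparison 0 of them were called higher and 1 lower. *Itgam* fell by 0.66 with LPS (adjusted p = 0.0233), and *Fcgr1* fell by 1.60 in LPS+inhibitor compared with LPS (adjusted p = 0.0317) and by 1.26 compared with untreated cells (adjusted p = 0.0374). The signal of 4 T cell markers summed to 814 and 720, then 2700 and 3120, then 1150 and 1170, highest with LPS and lowest untreated as on the proximal and middle *Ifnar1* probes. The sum of the conventional dendritic cell markers below had the same order without overlap. Those of the B cell and NK cell markers had it within each replicate number. *Lck* was the most abundant T cell marker only through the LPS arrays, at 10.94 and 11.30 there, 6.87 and 6.91 untreated, and 8.43 and 8.86 with LPS+inhibitor. The defining marker *Cd3e* was brighter than *Lck* on the other 4 arrays and read 9.35 and 9.13 with LPS and 9.35 and 9.08 in untreated cells, and *Cd3d* was well above background on 1 array. Most abundant here means the highest signal totaled over the 6 arrays, and probes of different genes differ in brightness. The part of other cells in the results was not tested.

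Of 4 plasmacytoid dendritic cell markers, cells known as a source of type I interferon, 3 were well above background on every array. Their summed signal was 48000 and 40500 on the untreated arrays, 31300 and 30500 on the LPS arrays, and 53400 and 37100 on the LPS+inhibitor arrays, with *Siglech* the most abundant on every array. *Siglech* differed by −0.73 with LPS (adjusted p = 0.122), while 2 of the 4 were called higher, *Tcf4* by 1.19 (adjusted p = 0.0136) and *Ccr9*, dim in untreated cells, at least 5.44-fold (adjusted p = 0.0224). *Tcf4* fell by 1.49 in LPS+inhibitor compared with LPS (adjusted p = 0.0193). The 5 neutrophil markers were all well above background on every array and summed to 5190 and 6790, then 5750 and 11100, then 6160 and 9420, with *Elane* the most abundant on all arrays but LPS replicate 2. The B cell markers summed to 238 and 68.8, then 531 and 125, then 337 and 108, with *Cd79a* the only 1 of 4 well above background on every array and the most abundant on all but 2 arrays, where *Ms4a1* was brighter. *Pax5* was the 1 B cell marker called, and in LPS+inhibitor it was at least 1.39-fold higher than with LPS (adjusted p = 0.0244), where the sum was lower, and at least 2.08-fold higher than in untreated cells (adjusted p = 0.0105). It was well above background only in LPS+inhibitor. The NK cell markers summed to 42.5 and 49.1, then 51.4 and 214, then 43.7 and 83.1, with *Klrb1c* the most abundant through LPS replicate 2 (7.46), *Ncr1* brighter on 4 of the 6 arrays, and *Klra4* and *Eomes* not well above background anywhere. The conventional dendritic cell markers summed to 35.5 and 41.7, then 119 and 126, then 79.7 and 90.1. *Zbtb46* was their most abundant, well above background in both LPS groups and not in untreated cells, and *Flt3*, *Xcr1*, and *Clec9a* were not well above background on any array. The fibroblast markers summed to at most 49.3 on any array, with *Col1a2*, the most abundant on the untreated and LPS arrays, well above background on 1 array and *Col1a1*, *Col3a1*, and *Pdgfra* on 0.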

How the data were processed

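RNA of the 6 samples was labeled with Cy3 and hybridized to single-color Agilent mouse arrays. For every array the authors deposited spot intensity values from Agilent Feature Extraction 10.7.3.1, which subtracts background to give a processed signal and does not scale arrays to each other. A series-wide table of log2 values from the authors, made with limma and quantile normalization by their methods, served as an alternative.

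Quantile normalization was applied to the log2 of the processed signal, over 59305 spots per array with controls left out. Outlier-flagged spots, 119 to 172 per array, were left out, and spots of a probe were averaged. All 6 arrays entered 1 fit by lmFit and eBayes of limma 3.58.1 (R 4.3.3), with 3 residual and 1.05 prior degrees of freedom. Adjusted p is that of Benjamini and Hochberg over 55680 probes, with a threshold of 0.05. The code was tested on simulated data. Replicates correlated with r of 0.996, 0.993, and 0.991 in untreated, LPS, and LPS+inhibitor cells over 20721 probes measured on every array.

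Gene names of 26762 probes came through a RefSeq accession, 3819 from a symbol, and 639 from a synonym of GRCm38.p6, and 24461 probes of 55681 kept the name in the files. Named from each pathway list were up to 3 genes per comparison with the largest differences past the threshold, and the genes behind small counts. *Ifna7*, not well above background in any group, was passed over among the largest differences. *Tbk1*, *Irf3*, *Jak1*, *Tnf*, *Lck*, *Siglech*, *Tcf4*, *Ccr9*, *Pax5*, *Itgam*, and *Fcgr1* were singled out after their values were seen. A gene of the lists is not reported here. Members and lists were chosen with earlier results of these data known. The alternatives were 75th percentile scaling, the deposited log2 values, normexp (offset 50) for the background, a prior that follows intensity, leaving out dim probes, keeping outlier spots, fitting 2 groups at a time, a block for the replicate number, and leaving out each array in turn.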

Additional observations from a re-analysis of the deposited data

How the results depend on the processing

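Over the 14 alternatives the differences of *Ifnb1* against untreated cells stayed called, from 5.81 to 8.28 for LPS and from 6.02 to 8.35 for LPS+inhibitor. With 75th percentile scaling, LPS minus untreated was 0.17 for distal *Ifnar1* and 0.16 for *Ifngr2*, which turned their sign, and 0.63 for *Ifnar2* and 0.62 for *Ifngr1*, which passed; LPS+inhibitor minus untreated was 0.20 for *Ifnar2*, which turned, and 0.56 for proximal *Ifnar1*, which passed. It called 5 member probes higher and 0 lower with LPS, and 21768 and 21937 of all probes higher against untreated cells. The deposited values gave −0.35 and −0.47 for *Ifngr2* in LPS minus untreated and LPS+inhibitor minus LPS, neither called, which left 0 member probes lower with LPS. With dim probes left out, 25084 probes were tested, and *Ifngr2* (−0.32 and −0.41) lost both calls. *Ifngr1* then passed at −0.64 in LPS+inhibitor minus LPS and proximal *Ifnar1* at 0.51 against untreated cells. Of the 25084, 3287 were lower in LPS+inhibitor minus LPS, against 2109 of 55680 in the main fit. Normexp correction gave 3239 of 55680 in that comparison, and called *Ifngr1* at −0.72 against LPS and −0.58 against untreated cells. In fits of 2 groups, with fewer arrays, the LPS+inhibitor minus LPS values of −1.12, −0.95, −0.97 (*Ifnar1*) and −0.41 (*Ifngr2*) were not called, nor were −0.32 for *Ifngr2* with LPS or 0.88 for middle *Ifnar1* against untreated cells. That left 0 member probes lower in each of the first comparisons and 1 higher against untreated cells, and of all probes 0 and 0 between the LPS groups and 1994 higher and 2690 lower against untreated cells. Elsewhere the cause was not tested.

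The replicate numbers are also slide columns. The differences between replicates 1 and 2 correlated across 20721 probes, which are not independent. The r was 0.47 for untreated and LPS, 0.40 for untreated and LPS+inhibitor, and 0.42 for LPS and LPS+inhibitor. With only 2 numbers this cannot show whether the samples of a number were paired, and the main fit took no account of it. With the number as a block, 2 member probes, both of *Ifnar1*, were called lower in LPS+inhibitor minus LPS, 0 lower with LPS and 1 higher against untreated cells; not called were *Ifngr2* (−0.32 and −0.41) and middle *Ifnar1* (−0.95 and 0.88). Of all probes, 1947 were higher and 1596 lower in LPS+inhibitor minus LPS.

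With each array left out in turn, its group's other array was assumed to vary like the other groups. LPS minus untreated ran from −0.05 (without untreated replicate 2) to 0.29 for *Ifngr1* and from −0.35 to −0.30 for *Ifngr2*, which was never called, so 0 member probes were lower. LPS+inhibitor minus LPS ran from −0.15 to 0.68 for *Ifnb1*, from −1.23 to −1.01, −1.13 to −0.76, and −1.11 to −0.83 for proximal, middle, and distal *Ifnar1*, and from −0.43 to −0.38 for *Ifngr2*, with 0 to 2 member probes lower. LPS+inhibitor minus untreated ran from 0.69 to 1.06 for middle and −1.28 to −1.0 for distal *Ifnar1*, from −0.18 to 0.09 for *Ifnar2*, and from −0.76 to −0.70 for *Ifngr2*, with 1 to 2 member probes higher and 0 to 2 lower. Counts of all probes ran from 1632 to 3696 higher and 2385 to 5481 lower with LPS, from 0 to 2855 and 0 to 1703 between the LPS groups, and from 680 to 2970 and 877 to 2690 against untreated cells. Of 476 pairs of an alternative and 1 of 34 differences, 351 stayed past the threshold, 125 did not, and 0 turned. The 34 were the up to 3 largest called per pathway list in LPS minus untreated and in LPS+inhibitor minus LPS, with *Ifna7* left out. *Ifna7* was called at 1.75 with LPS but was not well above background in any group. Signal over background limits *Ifnb1* in untreated cells, where 1 array did not measure it.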
